A study of Mus musculus with 3 samples.

Results

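The hypoxia response genes followed here were 8 genes of the 27755 listed for the D10 culture and the tail: the secreted ligands Vegfa and Adm, the oxygen sensors Egln1 and Egln3, and the effectors Car9, Bnip3, Ndufa4l2 and Ankrd37. They were chosen by name, with their levels in these same libraries already known, so every value below is a description and none carries a test. All 8 were listed in each of the 3 single-cell RNA libraries. Mouse embryonic stem cells (mESC) derived from ScxGFP reporter blastocysts, whose transgene marks cells that express the tendon gene Scx, were grown on feeder cells and aggregated into embryoid bodies with the BMP inhibitor LDN at 500 nM until day 2, after which the WNT activator CHIR at 5 µM was added to LDN up to day 6 (D6 PM, the paraxial mesoderm stage). The D10 culture had the same start and then received TGFβ1 at 10 ng/mL, the hedgehog agonist SAG at 100 nM and FGF2 at 10 ng/mL as a monolayer until day 10. The third library held cells of E14.5 embryonic tail from ScxGFP dams, dissociated with no culture. Each condition was 1 library, so cells were never counted as replicates and every interval is a 95% interval of counting error only. Oxygen tension is not given in the sources used here.

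Cells sense oxygen through prolyl hydroxylases, among them the products of Egln1 and Egln3, which mark the alpha subunits of hypoxia-inducible factor (HIF) for breakdown by the Vhl complex. When oxygen is scarce the alpha subunit persists, joins Arnt and binds short DNA elements with the core ACGTG or GCGTG near its targets. These targets include vessel growth factors, glycolytic enzymes and regulators of mitochondria, as well as the sensors themselves. Tendon and cartilage are sparsely vascularised, and cartilage in particular is known to depend on Hif1a during development.

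Promoters of 4 genes are shown. Car9 and Ankrd37 had the largest fibrocartilage to tendon ratios in culture below. Egln3 and Bnip3 were higher in every culture cluster of at least 30 cells than in any such tail cluster. Each line is the RefSeq window of 300 bases on GRCm38.p6, 250 before the annotated start and 50 after it, 5′ to 3′ on the gene's own strand, with ACGTG or its reverse complement CACGT in capitals. The windows are chr4:43506776-43507075 (plus strand) for Car9, chr12:54203825-54204124 (minus strand) for Egln3, chr7:138909457-138909756 (minus strand) for Bnip3 and chr8:45999801-46000100 (minus strand) for Ankrd37.
Car9: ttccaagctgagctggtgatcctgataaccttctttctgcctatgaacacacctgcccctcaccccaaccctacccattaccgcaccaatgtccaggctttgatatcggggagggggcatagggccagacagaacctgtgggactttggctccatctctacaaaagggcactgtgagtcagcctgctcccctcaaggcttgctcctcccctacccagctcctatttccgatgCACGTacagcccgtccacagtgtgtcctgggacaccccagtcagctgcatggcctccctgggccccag
Egln3: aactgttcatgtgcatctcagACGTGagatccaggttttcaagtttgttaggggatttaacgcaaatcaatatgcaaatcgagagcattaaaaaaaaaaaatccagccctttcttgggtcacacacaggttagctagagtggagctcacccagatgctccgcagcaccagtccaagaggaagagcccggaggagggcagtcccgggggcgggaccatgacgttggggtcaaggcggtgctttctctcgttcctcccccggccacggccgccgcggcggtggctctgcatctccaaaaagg
Bnip3: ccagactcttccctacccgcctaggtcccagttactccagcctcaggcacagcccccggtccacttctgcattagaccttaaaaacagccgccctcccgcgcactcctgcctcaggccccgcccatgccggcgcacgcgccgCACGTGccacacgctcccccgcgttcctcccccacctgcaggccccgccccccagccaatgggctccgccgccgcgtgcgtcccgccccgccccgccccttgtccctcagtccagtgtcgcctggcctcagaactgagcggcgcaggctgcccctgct
Ankrd37: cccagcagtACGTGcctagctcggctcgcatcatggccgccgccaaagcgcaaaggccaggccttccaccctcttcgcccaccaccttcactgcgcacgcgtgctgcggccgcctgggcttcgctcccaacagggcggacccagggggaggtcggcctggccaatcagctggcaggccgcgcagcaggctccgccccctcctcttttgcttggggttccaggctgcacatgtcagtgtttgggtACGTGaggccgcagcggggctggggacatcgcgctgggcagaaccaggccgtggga
In Car9 the match began at base 233 of the window and in Egln3 at base 22. Ankrd37 held a match at base 10 and another at base 245. The run CACGTG in Bnip3 is its own reverse complement, so its matches at bases 143 and 144 are a single site read on both strands. Egln1 held 1 match, the second of the Vegfa windows held 1, and the first Vegfa window and the Adm window held none. Thus 6 of the 7 genes with a window held ACGTG on either strand in at least 1 window. This stood beside 21.8% of the 27025 genes in the table and 19.6% of its 32851 windows. Ndufa4l2 had no entry. Among the glycolysis genes described below 9 of 14 with a window held ACGTG, and among the VEGF and adrenomedullin ligands and receptors 0 of 13. The other form of the core, GCGTG, was neither searched for nor marked. Its reverse complement CACGC stands in the Adm window, which held no match to ACGTG. A match describes letters in a window and is not a measured binding site.

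The D6 PM library held 5954 cells with 51858825 unique molecular identifiers (UMIs, each 1 captured RNA molecule), the D10 culture 7821 cells with 53403944 and the tail 2052 cells with 31343741. Median depth was 8171, 5622 and 13512 UMIs per cell, and the median mitochondrial share was 2.06%, 1.69% and 2.98%. Between 3 and 10 cell barcodes were shared by any pair of libraries. Levels are CPM, a gene's UMIs in a cluster divided by all UMIs there and given as UMIs per 1000000. The deposited cluster codes of the culture and tail were matched to the published cluster names and numbers by marker genes, and those of D6 PM are called groups 1 to 6. The cells per cluster under this match differ from the published cluster sizes for clusters 2, 3, 4 and 8, so these numbers stand for the marker genes given here. Cluster 2 held 855 culture and 241 tail cells, cluster 3 held 53 and 157, cluster 4 held 1088 and 49, and cluster 8 held 556 and 121. The names used here follow the published clusters, with their marker sums given next. Summed cartilage markers reached 4371 CPM in culture cluster 2 and 8803 CPM in tail cluster 2 (fibrocartilage), against 494 and 303 CPM in cluster 0 (tendon). Summed tendon markers stood at 4929 and 3229 CPM in cluster 0. By single genes culture cluster 0 was led by Lrrc17, Kcnk2 and Nnmt, and tail cluster 0 by Myh11, Col6a6 and Tbx3os1. Tendon markers were also at 4929 CPM in culture cluster 1 and 3421 CPM in culture cluster 2, and fibroblast markers, matrix genes that tendon cells also express, summed higher than tendon markers in cluster 0 (7440 and 8021 CPM). Cluster 1, proliferating tendon, carried 4979 and 5026 CPM of proliferation markers, and cluster 10, endothelial, 4024 and 6120 CPM of endothelial markers. In D6 PM, group 2 was led by pluripotency genes (8099 CPM). Groups 1 and 3 carried endoderm (2223 and 2559 CPM) and epithelial markers (4900 and 4383 CPM), group 3 with 3199 CPM of proliferation markers and dividing-cell genes in the lead. Group 4 is called somite-like from 642 CPM of somite markers, against at most 73.6 CPM in the other groups, although its fibroblast (1032 CPM) and proliferation (1030 CPM) markers summed higher. It also held 361 CPM of muscle markers, against at most 17.9 CPM in the other groups, with Myog among its leading genes. Group 5, led by Cd5l, Mmp13 and Ccl5 with 5435 CPM of fibroblast markers, and group 6, with haemoglobin and endothelial genes, were left without a name.

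Over whole libraries the levels of the 8 genes in the tail were below those in both cultures. Vegfa, the main growth factor for vessels, stood at 207 CPM in D6 PM, 98.5 CPM in the D10 culture and 58.1 CPM in the tail. Adm, which encodes the vasodilator and lymphatic peptide adrenomedullin, stood at 35.4, 26.7 and 4.43 CPM. These ligands had their highest whole-library level at D6. Egln1, the principal oxygen-sensing hydroxylase, stood at 352, 414 and 140 CPM in the same order, and Egln3, an isoform strongly inducible by HIF, at 75.7, 98.3 and 7.69 CPM. Both sensors were highest at D10. Among the effectors, Car9, a cell-surface carbonic anhydrase that handles acid outside the cell, stood at 3.18 CPM at D6, 11 CPM at D10 and 0.925 CPM in the tail. Bnip3, a receptor on mitochondria for their removal by autophagy, stood at 297, 218 and 40.4 CPM. Ndufa4l2, a mitochondrial protein that lowers respiratory activity when oxygen is short, stood at 145, 268 and 21.6 CPM. Ankrd37, an ankyrin-repeat protein known mainly as a HIF target, stood at 88.5, 97.2 and 23.6 CPM. The cell types differ between the libraries, so the matched clusters below carry the comparison.

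**Figure D1:**
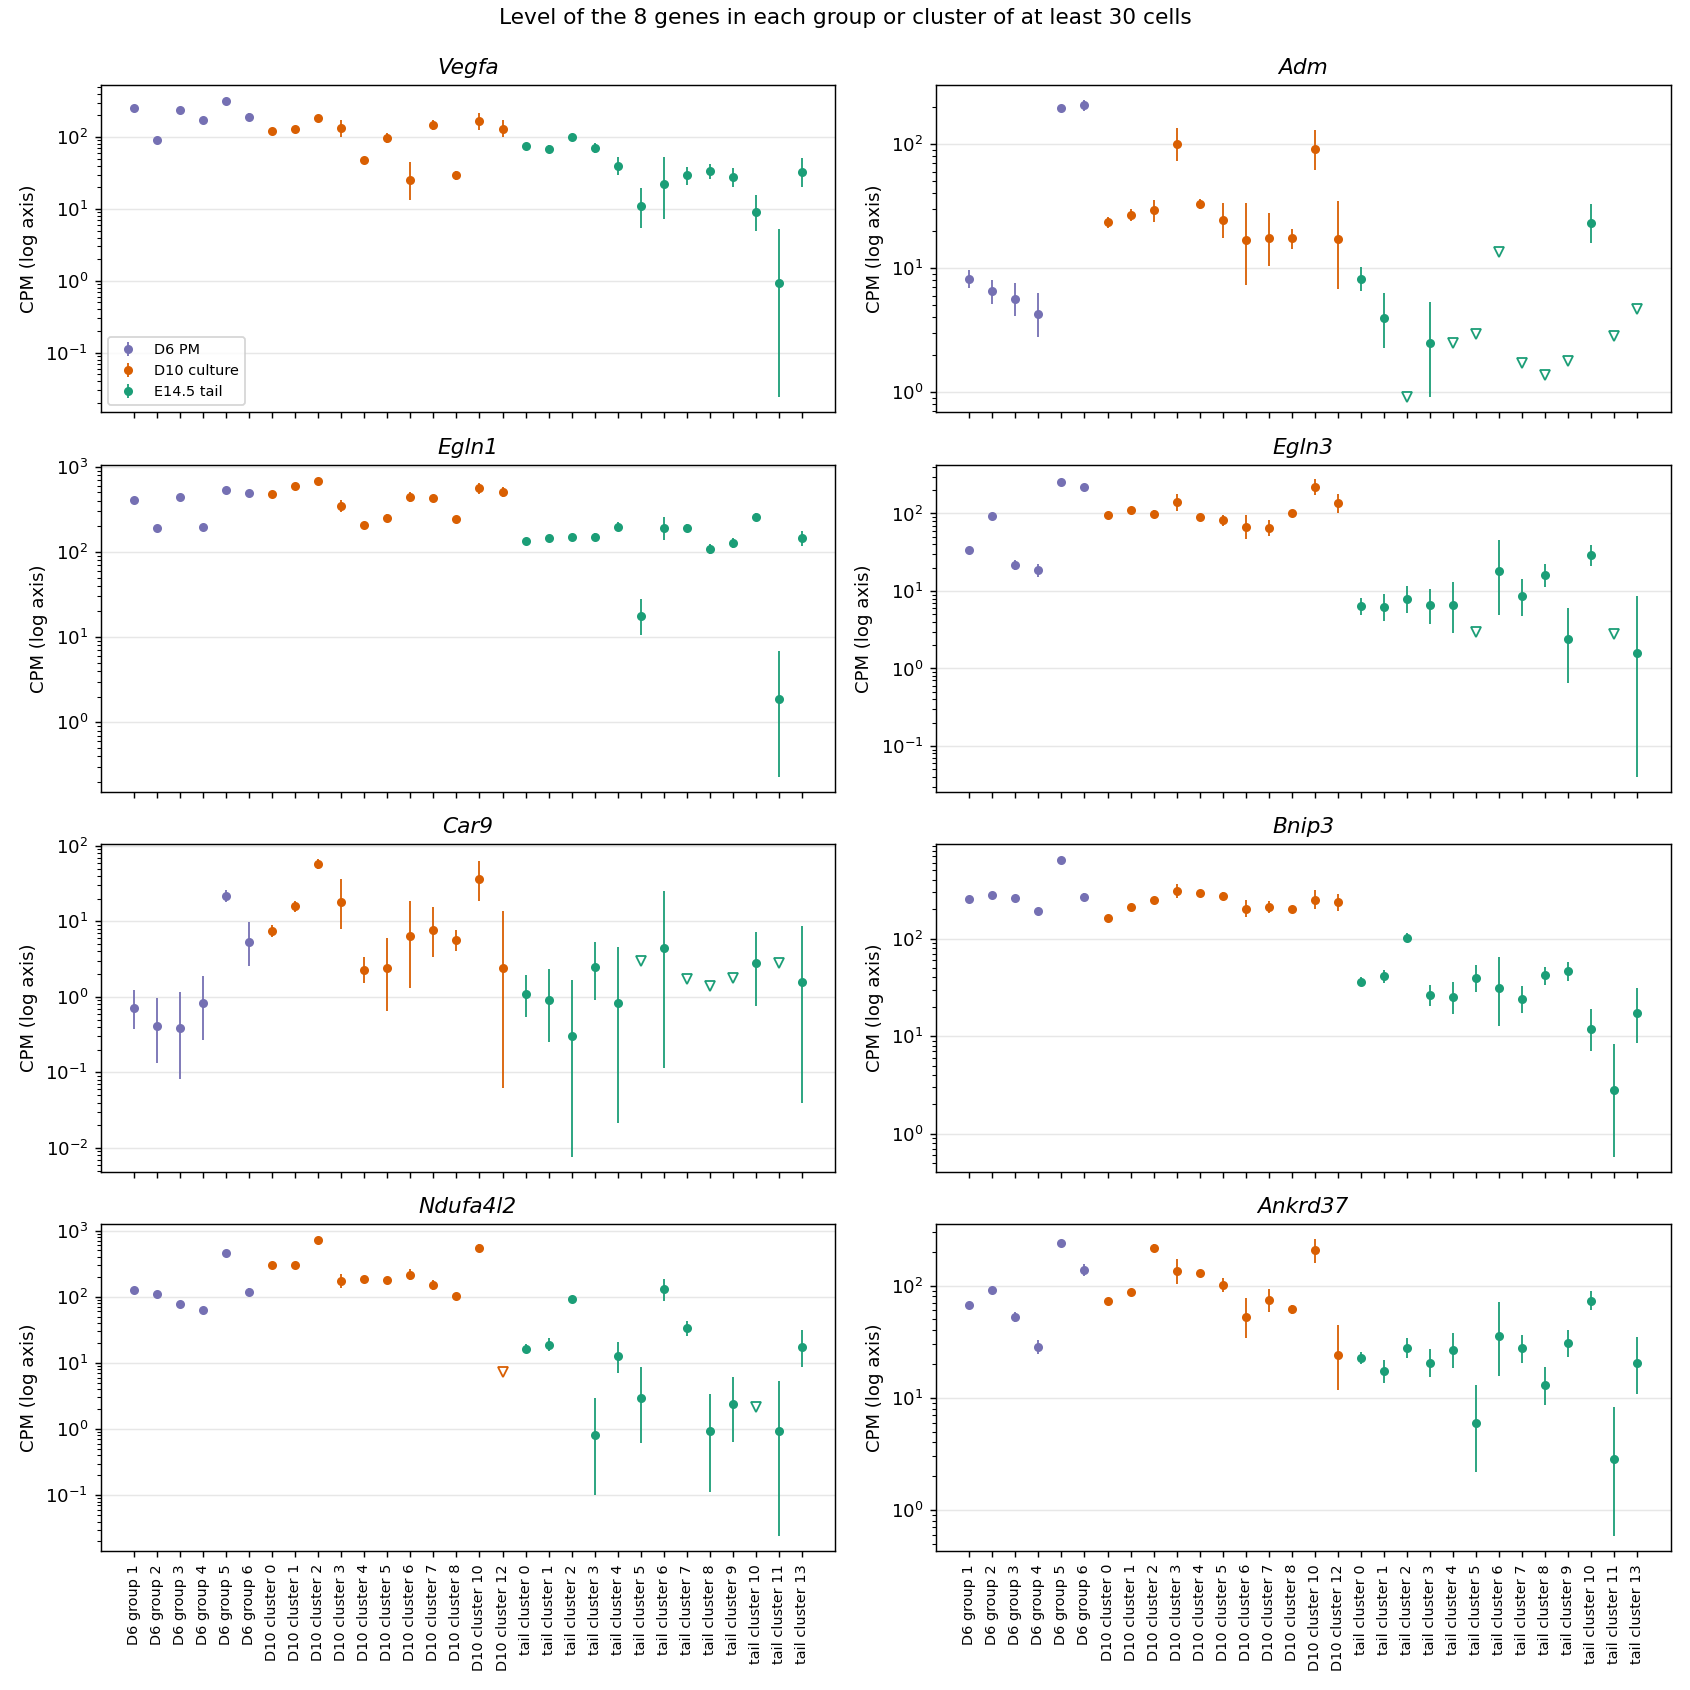
CPM (log axis) of each gene in every D6 group and in every D10 culture and tail cluster of at least 30 cells; points are levels, bars 95% counting intervals, and open triangles mark clusters with 0 UMIs, drawn at the level of 3 UMIs. Egln3 and Bnip3 in all 11 culture clusters lie above all 13 tail clusters.

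The D10 culture was set against the tail in the 3 clusters of the tendon and fibrocartilage lineage. In tendon cluster 0 all 8 genes were higher in culture, by 1.64 to 18.4-fold, and the intervals of the 8 ratios lay above 1. Of the 6 genes detected in at least 10% of cells of either library, 5 were at least 2-fold higher and none was lower, where 5.76% of 10418 genes tested were higher and 13.6% lower. Adm and Car9 did not reach the detection limit. In cluster 1 the count was 6 of 7, beside a background of 5.5% higher and 13.6% lower. In fibrocartilage cluster 2 it was again 6 of 7, beside 4.86% higher and 13% lower. Egln3 in the 3 clusters, Ndufa4l2 in clusters 0 and 1, Adm in cluster 1 and Car9 in cluster 2 reached the detection limit in culture only. The median gene stood at -0.21, -0.18 and -0.18 log2 in the 3 clusters, so the values below would be slightly larger relative to it. The median of the 8 genes, detected or not, was 2.0, 2.56 and 2.97 log2. Over those that reached the detection limit, as for the median gene, it was 2.0, 2.35 and 2.96 log2.

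The ligands differed in size. Vegfa was the gene with the smallest ratio: 121 CPM in culture against 74.0 CPM in tail in cluster 0, 131 against 69.1 CPM in cluster 1, and 181 against 100 CPM in cluster 2. The ratios were 1.64 (interval 1.5 to 1.78), 1.90 (1.67 to 2.16) and 1.80 (1.57 to 2.07), each under the 2-fold limit. Adm was sparser, with 390 and 83 UMIs in cluster 0 and a ratio of 2.87 (2.26 to 3.68). In cluster 2 the culture held 97 Adm UMIs and the tail 0. The culture was 32.2-fold higher with that 0 set to 3 UMIs, and the counting interval began at 25.7-fold.

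Egln1 was 3.56-fold higher in culture in cluster 0 (475 against 134 CPM), 4.0-fold in cluster 1 (588 against 147 CPM) and 4.52-fold in cluster 2 (679 against 150 CPM). Egln3, the inducible isoform, had larger ratios of 15.0 (11.7 to 19.6), 17.9 (12.2 to 27.3) and 12.7 (8.51 to 19.7), with overlapping intervals. The tail levels behind them were 6.32, 6.24 and 7.86 CPM, and the culture levels 95.1, 112 and 99.8 CPM. These tail levels rest on 64, 27 and 26 UMIs, and their share of background, taken up with the thinned cells, was not tested.

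The effectors spanned the widest range. Ndufa4l2 stood at 301 CPM in culture and 16.4 CPM in tail in cluster 0, a ratio of 18.4 (15.7 to 21.6). Its ratio was 15.8 in cluster 1 and 7.88 (6.99 to 8.91) in cluster 2, where the tail level was itself higher at 91.6 CPM. Bnip3 had 4.53 in cluster 0, 5.07 in cluster 1 and its smallest ratio in cluster 2 as well, 2.44 (2.15 to 2.78). Ankrd37 had its largest ratio there, with 3.19 (2.77 to 3.69), 5.10 (4.03 to 6.54) and 7.77 (6.25 to 9.77). Differences between clusters in these ratios were not tested. Car9 rested on few tail UMIs: 125 against 11 in cluster 0, a ratio of 6.94 (3.75 to 14.3), 169 against 4 in cluster 1, and 193 against 1 in cluster 2, a ratio of 192 with an interval from 34.0 to 7620.4.

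**Figure D2:**
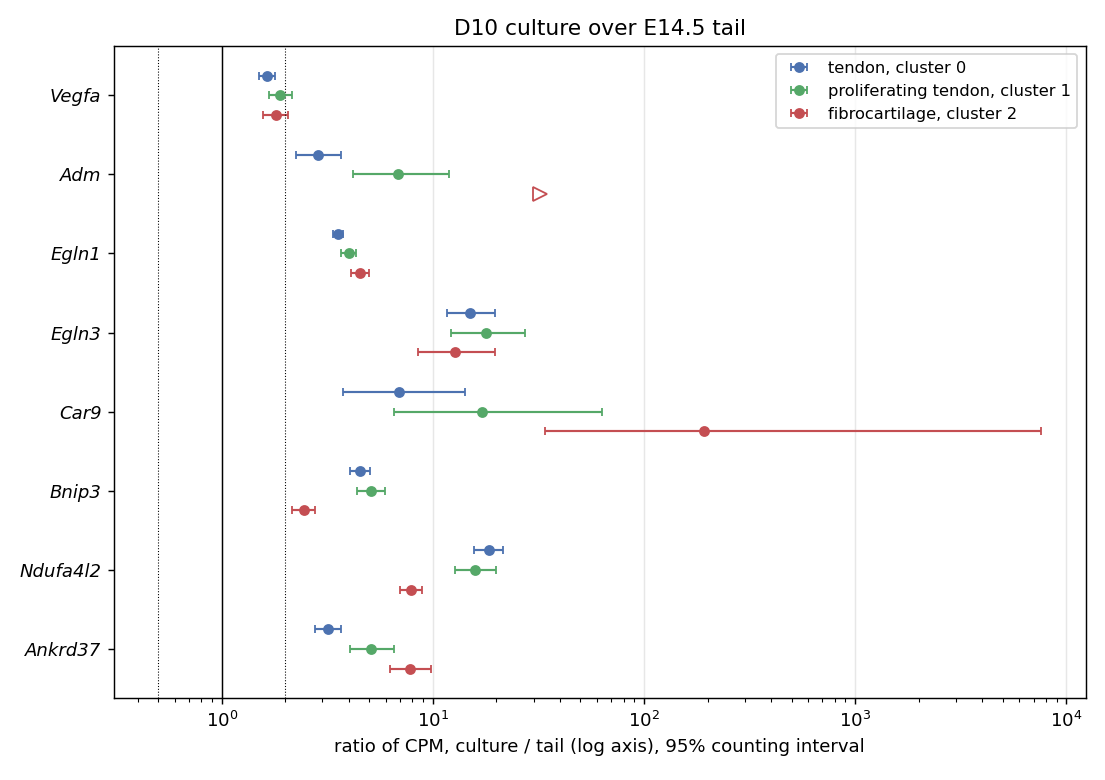
Ratio of CPM, D10 culture over tail (log axis), for each gene in clusters 0, 1 and 2. Points are ratios, bars 95% counting intervals and dotted lines 2-fold. The open triangle is a ratio with 0 tail UMIs set to 3. Vegfa lies under 2-fold in the 3 clusters, between 1.64 and 1.90, and Egln3 between 12.7 and 17.9.

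Several measures moved with this comparison. Immediate early and heat shock genes, which rise during enzymatic dissociation, summed to 747 CPM in culture cluster 0 and 3240 CPM in tail cluster 0, and 6 of the 10 detected genes of that list of 12 were at least 2-fold lower in culture, Fos at 27.3 against 889 CPM. Median depth in cluster 0 was 4918 UMIs per cell in culture and 13463 in tail, and the mitochondrial share 2.01% and 3.15%. Haemoglobin markers summed to 5.12 CPM in culture and 1412 CPM in tail in cluster 0, 1.03 and 4227 CPM in cluster 1, and 3.01 and 2728 CPM in cluster 2. Proliferation markers stood at 760 and 149 CPM in cluster 0. Of the integrated stress response genes 3 of 9 were higher and 1 was lower in cluster 0, and 4 of 7 were higher and none lower in cluster 2. The part of dissociation, depth, haemoglobin RNA, proliferation, stress and culture format in the differences was not tested. With 1 library of each kind, culture and tail cannot be told apart from their separate handling.

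The other lists of the pathway differed from each other. The list of 15 HIF pathway genes beyond the 8, which holds the HIF subunits, Vhl and coactivators, had 14 genes detected in cluster 0: none was higher and Hif3a and Arnt2 were lower, with a list median of -0.36 log2. Hif1a, the main regulated subunit, stood at 142 CPM in culture and 174 CPM in tail, and Vhl at 28.3 and 29.5 CPM. By contrast 15 of 15 glycolysis and glucose transport genes were at least 2-fold higher in culture in cluster 0, with a median of 1.96 log2, 14 of 15 in cluster 1 and 13 of 15 in cluster 2. Pgk1, a glycolytic kinase, stood at 1871 against 222 CPM in cluster 0 and Pfkp, a phosphofructokinase, at 70.3 against 4.44 CPM. Of 40 further HIF targets 37 were detected in cluster 0, 19 higher and 3 lower, with a median of 1.12 log2. Stc2, a secreted stanniocalcin, had 399 UMIs in culture and 5 in tail, a ratio of 48.7 (20.7 to 151). Angptl4, a lipase inhibitor, went the other way at 0.904 against 58.7 CPM.

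In clusters 0, 1 and 2 most other detected genes around the ligands were lower in culture. Of 14 VEGF and adrenomedullin ligands and receptors beyond Vegfa and Adm, 9 were detected in cluster 0, none higher and 7 lower. Of all genes tested there, 5.76% were higher and 13.6% lower. It was 7 lower of 9 in cluster 1 and 4 of 6 in cluster 2, none higher. In endothelial cluster 10, 4 of 11 were higher and 1 lower, beside 13.9% and 15.5%. In cluster 7, 4 of 7 were higher and 2 lower, beside 14% and 17.1%. In the other matched clusters more were lower than higher. In cluster 0 Calcrl, the receptor for adrenomedullin, stood at 1.02 CPM in culture and 23.5 CPM in tail, and Nrp2, a VEGF coreceptor, at 24.1 and 212 CPM. Nrp2 was higher in culture in clusters 3, 7 and 10. Of 10 other carbonic anhydrases only 2 were detected in cluster 0, and both were lower, Car14 at 1.39 against 12 CPM. Among 7 mitophagy receptors and regulators 6 were detected and none passed 2-fold in either direction. Bnip3l, the closest relative of Bnip3, stood at 173 CPM in culture and 152 CPM in tail, a ratio of 1.14 (1.07 to 1.22), beside 4.53 for Bnip3.

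**Figure D3:**
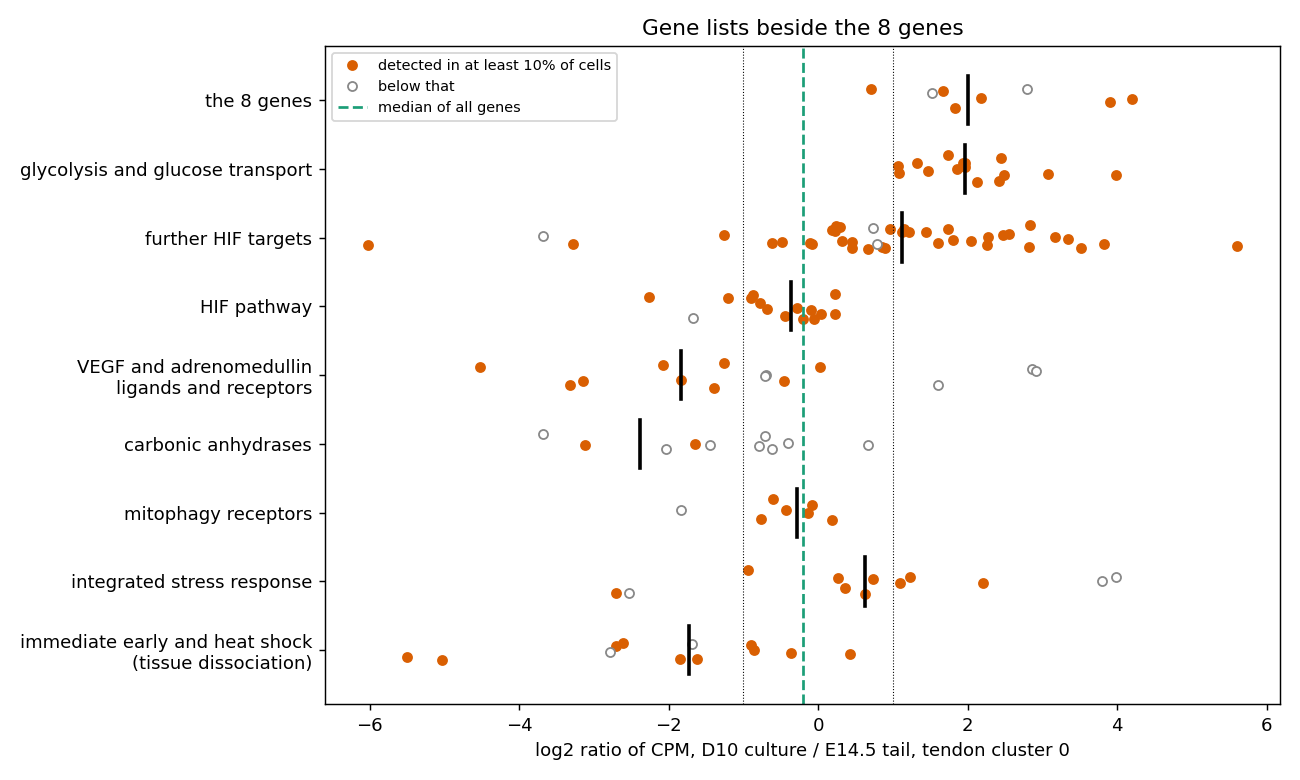
The log2 ratio of CPM, culture over tail in tendon cluster 0, for the 8 genes and for each gene list; filled points were detected in at least 10% of cells of either library, black bars are medians of those, and the dashed line is the median of all genes tested. The 15 glycolysis genes lie above 2-fold, and the HIF pathway genes have a median of -0.36.

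Across all clusters of at least 30 cells, 11 in culture and 13 in tail, the lowest culture level of Egln3 was 65.4 CPM (cluster 7) and the highest tail level 28.9 CPM (cluster 10). For Bnip3 the lowest culture level was 164 CPM (cluster 0) and the highest tail level 102 CPM (cluster 2). These 2 of the 7 genes detected in at least 10% of either library were above in every culture cluster, as were 0.354% of 10461 genes, and none was below in every one, as were 0.0382%. The other 6 overlapped. Ndufa4l2 had 0 UMIs in the 43 cells of culture cluster 12, led by Gkn2 and Cubn, against at least 103 CPM in the other culture clusters. Of 40 cells of cluster 12 thinned to 3000 UMIs, 0 had a UMI of Ndufa4l2, which at 3 counts allows a share of cells with a UMI of up to 7.5%.

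Endothelial cluster 10 had high levels of most of the genes in culture, from 58 cells. There Egln3 stood at 218 CPM (171 to 275), first of 11 culture clusters, with an interval that overlapped those of clusters 3 and 12. Adm stood at 91.0 CPM (61.4 to 130), next to 100 CPM (72.8 to 135) in cluster 3, and both were above the 32.9 CPM of the third place. Culture cluster 3, without a name, was led by Lyz2 and Tyrobp. Its fibroblast markers summed to 4038 CPM, tendon markers to 1228 CPM and macrophage markers to 1116 CPM. In culture cluster 10 Car9 stood at 36.4 CPM, Ankrd37 at 206 CPM and Ndufa4l2 at 546 CPM. Each was second after fibrocartilage, with intervals that overlapped it for Car9 and Ankrd37. In the tail the same endothelial cluster of 71 cells was first for Egln1 (256 CPM), Egln3 (28.9 CPM), Adm (23.3 CPM) and Ankrd37 (73.4 CPM), and its interval overlapped that of shallow cluster 6 for the 4 genes and that of cluster 8 for Egln3. It was near the bottom for Vegfa (9.18 CPM) and Bnip3 (12 CPM), and it had 0 UMIs of Ndufa4l2 against 180 in culture. With that 0 set to 3 UMIs the tail was 258-fold lower, and the counting interval began at 207-fold. Endothelial cells of both libraries held the receptors, with Kdr, the main VEGF receptor, at 576 CPM in culture and 959 CPM in tail. No cell of culture cluster 10 or cluster 3 was called a doublet.

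The order within each library was otherwise gene by gene. In culture, Vegfa was highest in fibrocartilage (181 CPM), with neighbours in the order overlapping down to cluster 0, and lowest in clusters 8 (29.2 CPM) and 6 (25.4 CPM). Bnip3 varied least among the 8 over the culture clusters, 1.89-fold from 164 CPM in tendon to 310 CPM in cluster 3, and pluripotent-like cluster 4 was second at 291 CPM. Egln1 was lowest in that same cluster 4 at 206 CPM. In the tail, Adm was detected in 4 of 13 clusters, and after endothelium tendon cluster 0 was next at 8.20 CPM. Erythroid cluster 11, with 830852 CPM of haemoglobin markers, had 1.88 CPM of Egln1 and 0.942 CPM of Vegfa. Without mitochondrial, ribosomal and haemoglobin genes in the total these would be 15.6 CPM for Egln1 and 7.79 CPM for Vegfa.

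Fibrocartilage cluster 2 was next compared with tendon cluster 0 within each library, where cells shared 1 library and depth was closer. In culture Car9, Ankrd37 and Ndufa4l2 stood out. Car9 was 7.70-fold higher (6.12 to 9.73), at 58.0 against 7.53 CPM. Ankrd37 was 2.99-fold higher (2.72 to 3.28), at 216 against 72.4 CPM. Ndufa4l2 was 2.40-fold higher (2.28 to 2.52), at 722 against 301 CPM. These 3 of 7 genes detected were at least 2-fold higher and none was lower, beside 1.54% of 7077 genes higher and 3.36% lower. Car9 entered this count through cluster 2 alone, with 15.4% of cells detected there and 3.48% in cluster 0. Ankrd37 and Ndufa4l2 reached the detection limit in both clusters. Bnip3 (1.52), Vegfa (1.5) and Egln1 (1.43) were also higher with intervals above 1, while Egln3 at 1.05 (0.930 to 1.18) and Adm at 1.24 (0.983 to 1.55) had intervals that included 1. Median depth was 3696 UMIs per cell in cluster 2 and 4918 in cluster 0.

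In the tail a different pair led. Ndufa4l2 was 5.59-fold higher in fibrocartilage (4.61 to 6.79), at 91.6 against 16.4 CPM, and Bnip3 2.82-fold (2.42 to 3.28), at 102 against 36.2 CPM. They were 2 of 5 genes detected, beside 3.65% of 10654 genes higher and 6.28% lower. Ndufa4l2 reached the detection limit in tail fibrocartilage only. Vegfa was 1.36-fold higher (1.19 to 1.55) and Egln1 1.12-fold (1.01 to 1.25). Ankrd37 at 1.22 (0.951 to 1.57) and Egln3 at 1.24 (0.757 to 1.99) had intervals that included 1. Adm had 83 UMIs in tendon and 0 in fibrocartilage. With that 0 set to 3 UMIs it was 9.04-fold lower there, and the counting interval began at 7.19-fold. Car9 had 11 and 1 UMIs, a ratio of 0.278 with an interval from 0.00647 to 1.91, whose upper bound lay under the lower bound of 6.12 in culture. Whether the ratios of the 2 libraries differ was not tested.

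**Figure D4:**
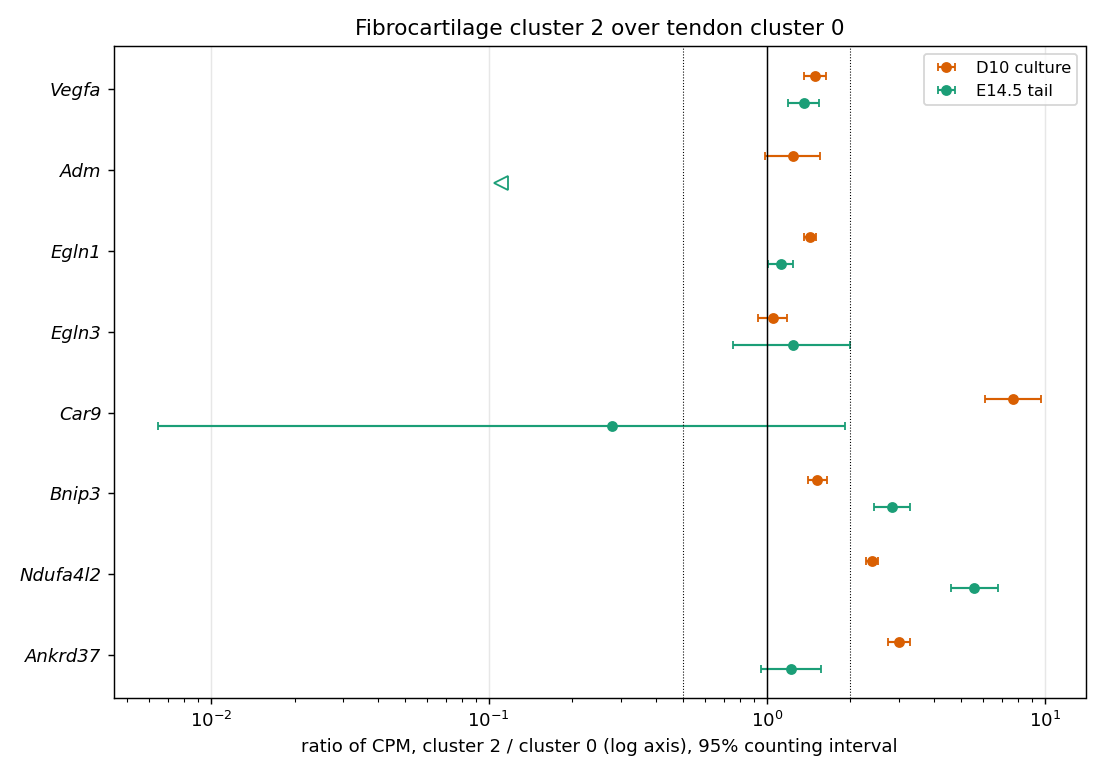
Ratio of CPM, fibrocartilage cluster 2 over tendon cluster 0 (log axis), in the D10 culture and in the tail; points are ratios, bars 95% counting intervals, the open triangle an upper bound at 0 UMIs, and dotted lines 2-fold. Ndufa4l2 lies above 2-fold in both libraries, Car9 and Ankrd37 in culture and Bnip3 in tail.

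Other lists gave a background to these ratios. Glycolysis genes had 1 of 15 at least 2-fold higher in culture fibrocartilage (Pfkp, 2.29) and 5 of 15 in tail fibrocartilage (among them Pfkp, Hk2, Slc2a1 and Pfkl), with medians of 0.46 and 0.75 log2. Further HIF targets had 3 higher and 1 lower of 33 in culture and 8 higher and 3 lower of 36 in tail. Plod2, a collagen-modifying hydroxylase, stood at 2.38-fold in culture, and Lox, a collagen crosslinker, at 0.116 in tail. Hif1a was 1.32-fold higher in tail fibrocartilage (1.21 to 1.44). Integrated stress response genes had 2 of 8 higher in culture fibrocartilage and none higher and 2 lower of 8 in the tail, and their part in the ratios was not tested.

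Proliferating tendon cluster 1 differed little from cluster 0. In culture none of 7 genes detected passed 2-fold in either direction, beside 4.21% higher and 0.186% lower of 8077 genes. Car9, below the detection limit, stood at 15.8 against 7.53 CPM, a ratio of 2.09 (1.65 to 2.66). Bnip3 (1.28), Egln1 (1.24), Ankrd37 (1.22), Egln3 (1.17) and Vegfa (1.08) had smaller ratios with intervals above 1. Ndufa4l2 was at 0.995 (0.951 to 1.04). In the tail none of 4 genes detected passed, beside 5.47% higher and 2.76% lower of 11298 genes. Ankrd37 was at 0.763 (0.580 to 0.994) and Adm, on 17 and 83 UMIs, at 0.479 (0.266 to 0.814). Egln1 went the other way at 1.10 (1.0004 to 1.21).

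At D6 the 8 genes were unevenly spread over the groups. Group 5, the group led by Cd5l and Mmp13, was first of 6 for 7 of the genes. There Bnip3 stood at 633 CPM, Egln1 at 527 CPM, Ndufa4l2 at 459 CPM, Vegfa at 315 CPM, Egln3 at 251 CPM, Ankrd37 at 240 CPM and Car9 at 21.9 CPM. For Egln1 and Egln3 its interval overlapped that of group 6, and for the other 5 it stood apart. Adm was highest in group 6 at 206 CPM (186 to 227), overlapping group 5 at 195 CPM (184 to 207), while groups 1 to 4 lay between 4.28 and 8.20 CPM. Somite-like group 4 was the lowest group for Egln3 (18.4 CPM), Ankrd37 (28.5 CPM), Ndufa4l2 (62.8 CPM), Bnip3 (191 CPM) and Adm (4.28 CPM), overlapping group 3 for Egln3 and groups 2 and 3 for Adm. Dissociation genes summed to 1989 CPM in group 5 and 803 to 1306 CPM in the others, and their part was not tested.

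From D6 to D10 the picture depended on the cells compared. Over all cells, Vegfa at D10 was at 0.475 (0.459 to 0.491) of its D6 level, the 1 gene of 7 detected that was at least 2-fold lower, and none was higher, beside 5.86% lower and 7.79% higher of 8845 genes. As a mean of each cell's own CPM, Vegfa was at 0.600 and no longer passed, and Ndufa4l2 passed at 2.19. Car9, below the detection limit, was 3.46-fold higher (2.91 to 4.14). In tendon cluster 0 against somite-like group 4, Egln3 was 5.16-fold higher (4.26 to 6.31), Ndufa4l2 4.79-fold (4.32 to 5.33), Ankrd37 2.54-fold (2.17 to 3.0) and Egln1 2.44-fold (2.30 to 2.60). These were 4 of 6 genes detected, beside 9.88% higher and 10.8% lower of 8934 genes. Below the detection limit, Car9 was at 9.16 (3.82 to 28.7), on 125 and 5 UMIs, and Adm at 5.50 (3.69 to 8.52), on 390 and 26 UMIs. Vegfa at 0.704 and Bnip3 at 0.860 were on the other side of 1. Tendon markers summed to 4929 CPM in cluster 0 and 93.8 CPM in group 4, fibroblast markers to 7440 and 1032 CPM, and muscle markers to 4.22 and 361 CPM. Dissociation genes summed to 747 and 1306 CPM, with 4 of 9 lower and none higher at D10. Median depth was 4918 and 7709 UMIs per cell. The part of these measures was not tested, and cell type, day and library cannot be told apart here. Of the further HIF targets 11 of 35 were higher and 2 lower in that comparison, Lox, which tendon cells also express as part of their matrix program, by 65.9-fold. In pluripotent-like cluster 4 against pluripotent-like group 2, cells whose label did not change, Adm was 5.07-fold higher (3.97 to 6.55) at 32.9 against 6.49 CPM. It was the 1 of 7 genes detected that passed, beside 4.14% higher and 3% lower of 9179 genes. Adm entered this count through cluster 4 alone, with 22.2% of cells detected there and 5.3% in group 2. Egln1 at 1.07 (1.01 to 1.13) and Bnip3 at 1.05 (1.002 to 1.10) had intervals just above 1. Egln3 at 0.961 (0.883 to 1.05) had an interval that included 1. Ndufa4l2 at 1.71 (1.60 to 1.83) and Ankrd37 at 1.40 (1.29 to 1.51) were higher with intervals above 1, and Vegfa was at 0.531 (0.478 to 0.588). Pluripotency markers summed to 5670 CPM in cluster 4 and 8099 CPM in group 2, proliferation markers to 2948 and 1808 CPM, and epithelial markers to 1157 and 796 CPM. Endoderm markers summed to 819 and 498 CPM, fibroblast markers to 116 and 19.7 CPM, and dissociation genes to 754 and 1065 CPM. Their part in these ratios was not tested.

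Each cell was then thinned to 3000 UMIs, so that cells of unequal depth could be compared, leaving out 1006, 1157 and 100 shallower cells at D6, D10 and in the tail. The share of tendon cluster 0 cells with a UMI of Ndufa4l2 was 44.4% in culture and 3.39% in tail, against 54.8% and 7.59% before thinning. For Egln3 it was 24.2% and 1.77%, and for Vegfa, the gene closest between libraries, 28.9% and 18.4%. In tail erythroid cluster 11, whose cells should lack most of these genes, the thinned shares lay between 0 and 1.6%, at a median depth of 8391 UMIs. Car9 and Egln3 had a UMI in 0 of 125 of these cells, which at 3 counts allows a share of up to 2.4%, above the 0.295% and 1.77% of tail tendon. With 125 cells and that limit, the comparison could not set these tail shares apart from background whatever the counts. Haemoglobin markers summed to 830852 CPM in cluster 11, which leaves few UMIs per cell for other genes. The part of background in the tail levels and ratios of Car9 and Egln3 was not tested.

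Counted per cell, 21.2% of culture tendon cells and 40.9% of culture fibrocartilage cells held a UMI of 4 or more of the 8 genes, against 0.147% and 1.67% in the tail. The share was 59.3% in D6 group 5 and 4.95% in somite-like group 4. Fibrocartilage cells with none of the 8 made up 0.78% in culture and 37.9% in tail. Detection of the genes in the same cell was compared with the product of their single shares. In culture tendon cells 26 of 27 pairs with at least 5 cells expected were above that product, with a median ratio of 1.21. Vegfa and Car9 were at 1.85, on 31 cells, and Car9 with Ndufa4l2 at 1.55, on 40 cells. In culture fibrocartilage 20 of 28 pairs were above it, with a median of 1.07, and in D6 group 5 25 of 28 with a median of 1.07. In tail tendon 3 of 6 pairs were above it, with a median of 0.983, and in tail fibrocartilage 4 of 5, with a median of 1.39. Cells thinned to 1 depth still share cluster, size and capture.

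**Figure D5:**
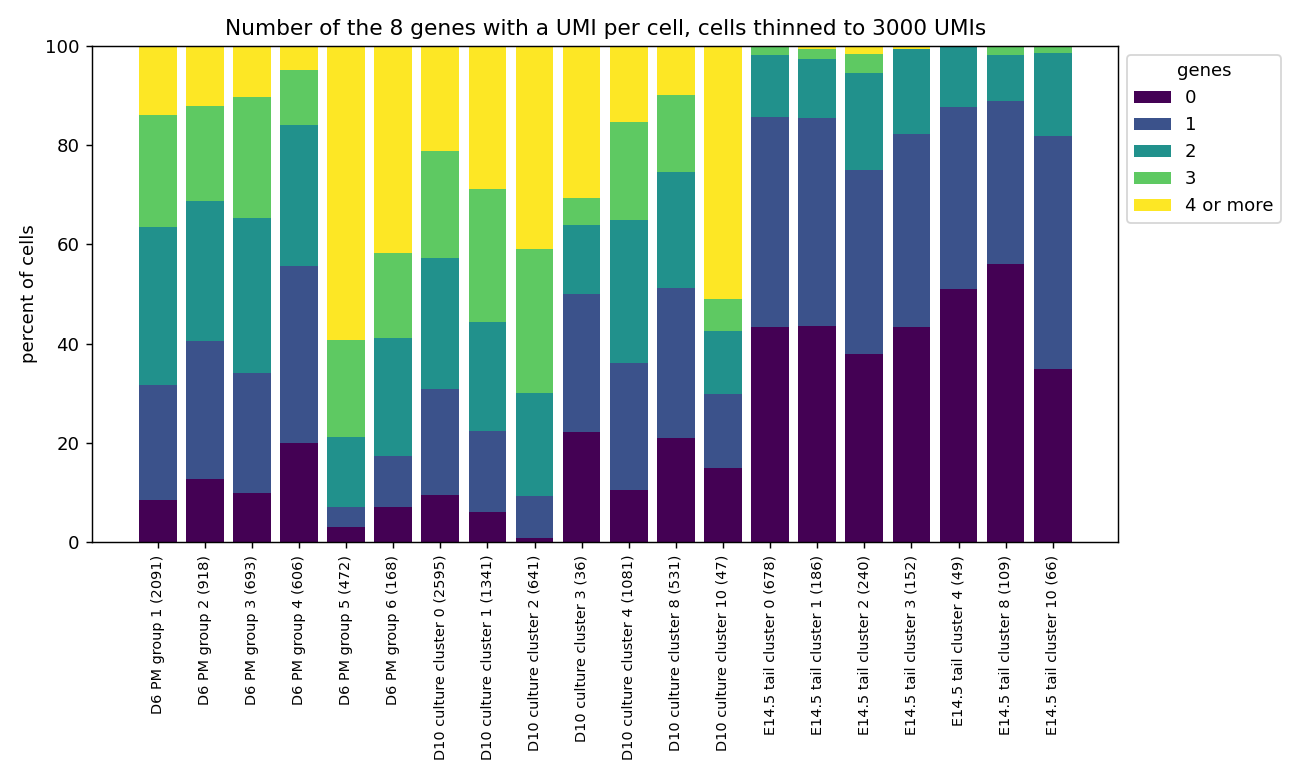
Percent of cells (bars, from 0 to 100) with a UMI of 0, 1, 2, 3 or at least 4 of the 8 genes after thinning each cell to 3000 UMIs, with the number of cells in brackets, for the D6 groups and chosen culture and tail clusters. The class of 4 or more reaches 59.3% in D6 group 5 and 40.9% in culture cluster 2, and 1.67% in tail cluster 2.

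Over the 30 groups and clusters of at least 30 cells, log2(CPM + 1) of the 8 genes ran together to unequal degrees. Across their 28 pairs the median Pearson correlation was 0.72, the lowest 0.45 (Vegfa with Car9) and the highest 0.88 (Egln3 with Ankrd37). These points share libraries and depth, so the values are descriptions. Among 8694 genes with at least 50 CPM in 1 or more clusters, the profile most like the mean of the 8 was that of Ero1l, an oxidase of the endoplasmic reticulum, at r = 0.93, followed by Gys1, glycogen synthase, at 0.91 and Ccng1 at 0.91. Bnip3 was most like Pgk1 (0.91), Mafg (0.91) and Mgarp (0.89), Ankrd37 most like Pfkp (0.89), Maff (0.89) and Ero1l (0.88), and Egln3 most like Bhlhe40 (0.91), Maff (0.90) and Hint3 (0.90). Vegfa was most like Gaa (0.91), P4ha1 (0.89) and Npc2 (0.89), and Egln1 most like Srp72 (0.96), Mvb12a (0.95) and Ssr4 (0.95), genes of lysosomes, collagen hydroxylation and protein secretion in part. Ndufa4l2 and Car9 had looser partners, led by Mgarp (0.81) and Ier3 (0.82).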

How the data were processed

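Cells were captured on 10x droplets with 3′ UMI libraries, 1 library each for D6 PM, D10 culture and E14.5 tail. The deposited tables hold whole UMI counts per gene and cell with the authors' cluster codes. The authors processed reads with Cell Ranger, left out multi-mapping reads, and used Seurat 3.0 to remove cells above 7.5% mitochondrial counts and the outer 2% of cells. The genome build, and whether strand was used, are not given in the sources used here. In GENCODE M21 genes on the opposite strand overlap Adm, Car9, Bnip3, Ndufa4l2 and Ankrd37. Codes were matched by hand to the published clusters by the detection shares of their marker genes, not by cluster size.

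The 8 genes, the gene lists and the comparisons were chosen with earlier results of these data known. UMIs were summed per cluster and divided by all UMIs of the cluster. Intervals are exact at 95% (Poisson for levels, conditional binomial for ratios, Clopper-Pearson for shares). A gene counted as higher or lower at 2-fold, among genes detected in at least 10% of cells of either group. This limit lets a gene in through its higher group alone, for the 8 genes and for all genes tested. A group at 0 was set to 3 UMIs. Text names the 8 genes and, per list and comparison, at most 4 genes with the largest ratio and at least 20 UMIs, and a few others (Hif1a, Vhl, Bnip3l, Kdr) chosen after their values were seen. With 1 library per condition no p-value was computed. Alternatives were removal of Scrublet doublets (81, 116 and 9 cells at D6, D10 and in tail), of cells under 1000 genes, of mitochondrial, ribosomal and haemoglobin genes from the total, means over cells, scaling to the median gene, 3-fold, other detection limits and thinning to 5000 UMIs. The ratio and interval steps were tested on simulated data. Python 3.11.15, SciPy 1.17.1 and scanpy 1.11.5 were used.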

Additional observations from a re-analysis of the deposited data

Results flagged for a closer look

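Ankrd37 differed in direction between the libraries in proliferating tendon cluster 1 over tendon cluster 0. Its ratio was 1.22 (interval 1.12 to 1.33) in the D10 culture and 0.763 (0.580 to 0.994) in the tail, so the intervals lay on opposite sides of 1. The median gene of the tail comparison was at -0.11 log2, and relative to it the tail interval would include 1. Levels were 88.3 against 72.4 CPM in culture and 17.3 against 22.7 CPM in tail, the latter on 75 and 230 UMIs. The difference between the 2 ratios was not tested. With 1 library of each kind it cannot be told apart from a difference between single libraries.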

How the results depend on the processing

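Under the alternatives, 869 levels of the 8 genes stayed within the counting interval of the level given and 187 did not, and 608 ratios did and 71 did not, beside 1 that changed side. Among ratios whose interval left out 1, that was Vegfa in cluster 1 over 0 in culture, from 1.08 to 0.945 as a mean over cells. The count of the 8 genes higher in culture over tail lay between 5 and 7 over the alternatives for tendon and for fibrocartilage, and between 6 and 7 for proliferating tendon. At 3-fold, 1 gene was higher in cluster 2 over 0 in culture (Car9), 1 in tail (Ndufa4l2), 2 in D10 cluster 0 over D6 group 4, and 0 were lower at D10 over D6. With detection in 5% of cells or with 20 UMIs, Car9 made 1 gene higher in cluster 1 over 0 in culture and 1 at D10 over D6, and Adm made 1 gene lower in the tail in cluster 2 over 0 and in cluster 1 over 0. With 20 UMIs, Car9 was added in D10 cluster 4 over D6 group 2, giving 2. As a mean over cells, Ndufa4l2 made 1 gene higher at D10 over D6 and Vegfa was no longer lower, giving 0. The median log2 ratio of the 8 genes moved from 2.0 to 2.21 relative to the median gene and to 2.15 as a mean over cells in culture over tail in cluster 0. As a mean over cells it was 3.33 in cluster 2, 0.46 in cluster 2 over 0 in culture, 0.36 at D10 over D6 and 2.14 in D10 cluster 0 over D6 group 4. Without mitochondrial, ribosomal and haemoglobin genes in the total it was 0.11 at D10 over D6. In cluster 1 over 0 in tail it turned from -0.059 to 0.053 relative to the median gene. The cause of these moves was not tested. No paired analysis was possible because each condition was 1 library, and no library could be left out. Depth limits Car9, Adm and Egln3, which rest on 1 to 11, 0 to 83 and 26 to 64 UMIs in the tail clusters 0, 1 and 2. Thinned to 5000 UMIs or unthinned, 324 shares moved beyond their interval and 204 did not, as more UMIs per cell raise a share by construction.

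The numbers of all genes past the limits follow from the limits themselves. At 3-fold in place of 2-fold, genes called higher numbered 306 against 600 in culture over tail in cluster 0, 286 against 618 in culture over tail in cluster 1, 235 against 485 in culture over tail in cluster 2, 47 against 109 in cluster 2 over 0 in culture, 198 against 389 in cluster 2 over 0 in tail, 205 against 340 in cluster 1 over 0 in culture, 392 against 618 in cluster 1 over 0 in tail, 346 against 689 in D10 over D6, all cells, 516 against 883 in D10 cluster 0 over D6 group 4 and 147 against 380 in D10 cluster 4 over D6 group 2. Under that setting, genes called lower numbered 713 against 1420 in culture over tail in cluster 0, 836 against 1525 in culture over tail in cluster 1, 586 against 1300 in culture over tail in cluster 2, 96 against 238 in cluster 2 over 0 in culture, 362 against 669 in cluster 2 over 0 in tail, 0 against 15 in cluster 1 over 0 in culture, 40 against 312 in cluster 1 over 0 in tail, 256 against 518 in D10 over D6, all cells, 446 against 963 in D10 cluster 0 over D6 group 4 and 91 against 275 in D10 cluster 4 over D6 group 2. With detection in 5% of cells, genes called higher numbered 180 against 109 in cluster 2 over 0 in culture and 642 against 380 in D10 cluster 4 over D6 group 2. Under that setting, genes called lower numbered 378 against 238 in cluster 2 over 0 in culture, 1049 against 669 in cluster 2 over 0 in tail, 47 against 15 in cluster 1 over 0 in culture, 619 against 312 in cluster 1 over 0 in tail, 796 against 518 in D10 over D6, all cells and 425 against 275 in D10 cluster 4 over D6 group 2. With all genes of at least 20 UMIs, genes called higher numbered 1497 against 600 in culture over tail in cluster 0, 1171 against 618 in culture over tail in cluster 1, 955 against 485 in culture over tail in cluster 2, 546 against 109 in cluster 2 over 0 in culture, 685 against 389 in cluster 2 over 0 in tail, 598 against 340 in cluster 1 over 0 in culture, 2359 against 689 in D10 over D6, all cells, 2075 against 883 in D10 cluster 0 over D6 group 4 and 1378 against 380 in D10 cluster 4 over D6 group 2. Under that setting, genes called lower numbered 3296 against 1420 in culture over tail in cluster 0, 1204 against 238 in cluster 2 over 0 in culture, 1588 against 669 in cluster 2 over 0 in tail, 536 against 15 in cluster 1 over 0 in culture, 1107 against 312 in cluster 1 over 0 in tail, 2874 against 518 in D10 over D6, all cells, 2268 against 963 in D10 cluster 0 over D6 group 4 and 954 against 275 in D10 cluster 4 over D6 group 2.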

Other observations

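The D10 culture was also set against the tail in clusters 3, 4, 5, 6, 7, 8 and 10, which were added after the levels had been seen. In endothelial cluster 10 the 8 genes were detected and each was at least 2-fold higher in culture, beside 13.9% of 10194 genes higher and 15.5% lower. Other markers moved there too: tendon markers summed to 779 CPM in culture and 48.7 CPM in tail, and fibroblast markers to 543 and 165 CPM. Proliferation markers summed to 182 and 1422 CPM, and haemoglobin markers to 0 and 9727 CPM. Dissociation genes summed to 870 and 2280 CPM, with 6 of 10 lower and 1 higher in culture. The part of these markers was not tested. Vegfa, the gene with the smallest ratios in the tendon lineage, was 18.2-fold higher there (9.80 to 36.3), on 55 and 13 UMIs, and Bnip3 21.0-fold (12.3 to 37.7), on 83 and 17 UMIs. Clusters 4, 5, 6, 7 and 8 held unlike cells in the libraries by their markers, and cell type and library cannot be told apart in them. In cluster 8, annotated as muscle, muscle markers summed to 430 CPM in culture and 6346 CPM in tail and pluripotency markers to 1231 and 4.2 CPM. There Vegfa was at 0.878 (0.667 to 1.17), while Ndufa4l2 had 689 UMIs in culture and 2 in tail, a ratio of 112 (30.8 to 924). In cluster 4 pluripotency markers summed to 5670 CPM in culture and 7.5 CPM in tail, and epithelial markers to 1157 and 4495 CPM. There Egln1 was at 1.04 (0.910 to 1.19) and Vegfa at 1.19 (0.888 to 1.64), and 5 of 7 genes detected were higher, beside 16.9% of 11509 genes.

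Epithelial cluster 7 was led by Gcg, Iapp and Pyy in culture and by Krt4, Upk1b and Krtdap in tail. There 6 of 6 genes detected were higher, beside 14% of 10991 genes, with Vegfa at 5.0-fold (3.62 to 7.02). In cluster 3, 6 of 7 were higher, beside 12.4% of 10758 genes, with Adm at 40.6-fold (17.2 to 117) on 44 and 6 UMIs. In cluster 6, whose cells were shallow, 2 of 3 genes detected were higher, beside 7.76% of 4096 genes. Tendon markers of cluster 6 summed to 2706 CPM in culture and 1018 CPM in tail, endothelial markers to 10.6 and 301 CPM, and muscle markers to 14.8 and 305 CPM. In cluster 5 the count of 6 of 6 stood beside 83.9% of 6171 genes higher and a median gene at 2.16 log2, so it says nothing particular about these genes.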
